A study of Mus musculus with 4 samples.

Results

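The collagen chain genes were examined across 4 liver RNA sequencing libraries. All gene symbols made of Col, a number, the letter a and a second number were taken as collagen chains, whatever their level, which gave 44 of the 24346 symbols in the tables. Of these, 18 chains had a mean of at least 0.5 FPKM (fragments scaled to exon length and to the mapped fragments of the library) over the 4 libraries, 18 lay below that mean, and 8 were listed at 0 in every library. Of all symbols, 11860 reached the same mean and 7938 were listed at 0 throughout.

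The livers came from male ob/ob mice, a strain without functional leptin that becomes obese. All groups were fed from 6 weeks of age for 4 weeks, and cholesterol made up 1% of every diet. CD was a chow diet, WD was a diet rich in sucrose and cocoa butter, and CD+7KC and WD+7KC were the same diets with 0.01% 7-ketocholesterol (7KC), an oxidized form of cholesterol. Each group had 1 library, the number of mice behind a library is not given in the sources used here, and no difference below has a replicate check among these libraries. The study also assayed Col1a1 and Col1a2 by replicated qRT-PCR, which was not analysed here. For fibrosis genes in ob/ob mice the authors report no significant change. They also report no difference between the diet groups in the area stained by Sirius Red. The authors also describe ob/ob mice as a limited model of fibrosis, the scarring in which collagen accumulates.

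Collagens are the main structural proteins of the extracellular matrix, and each molecule is a helix of 3 chains. Fibrillar collagens (types I, III, V, XXVII and others) build the fibres of scar tissue, type IV collagen forms the network of basement membranes, and type VI collagen forms beaded filaments around cells. In liver, fibrillar collagens are made mainly by hepatic stellate cells and portal fibroblasts, while type XVIII collagen is made by hepatocytes. The cell types cannot be separated here, because in whole tissue fewer cells of a type and less RNA per cell cannot be told apart.

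The promoters of 3 chains are shown because, with the deposited values, these chains carried the largest log2 fold changes of the 18 in any of the comparisons below. Each is the 250 bases before the RefSeq transcription start in GRCm38.p6, printed on the gene's strand. They belong to Col27a1 (chr4:63215162-63215411, plus strand), Col5a3 (chr9:20815068-20815317, minus strand) and Col13a1 (chr10:61979109-61979358, minus strand). Capitals mark the TATA box letters TATAAA, the CCAAT box letters CCAAT and the GC box letters GGGCGG, each searched on both strands, and no matches overlapped in these windows.
Col27a1: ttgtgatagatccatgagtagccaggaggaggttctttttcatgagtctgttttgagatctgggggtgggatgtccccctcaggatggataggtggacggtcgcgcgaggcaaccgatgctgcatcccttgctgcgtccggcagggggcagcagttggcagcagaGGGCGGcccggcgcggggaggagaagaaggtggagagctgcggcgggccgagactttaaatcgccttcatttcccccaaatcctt
Col5a3: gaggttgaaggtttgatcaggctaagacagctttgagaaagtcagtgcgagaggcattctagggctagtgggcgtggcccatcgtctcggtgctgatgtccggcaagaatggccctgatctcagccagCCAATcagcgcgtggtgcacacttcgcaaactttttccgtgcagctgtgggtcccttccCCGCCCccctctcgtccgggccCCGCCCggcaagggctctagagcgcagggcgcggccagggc
Col13a1: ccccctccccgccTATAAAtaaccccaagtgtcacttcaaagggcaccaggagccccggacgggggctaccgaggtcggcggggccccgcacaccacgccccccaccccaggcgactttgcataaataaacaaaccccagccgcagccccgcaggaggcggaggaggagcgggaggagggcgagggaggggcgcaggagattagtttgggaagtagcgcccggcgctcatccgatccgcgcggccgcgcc
The Col5a3 window held the CCAAT box at 122 bases before the start and the GC box on the other strand at 63 and 41 bases. The Col27a1 window held the GC box at 85 bases, and the Col13a1 window held the TATA box at 237 bases. Among 32851 RefSeq promoters of 250 bases, 12.4% held the TATA box letters, 33.8% the CCAAT box letters and 32.7% the GC box letters. The Col27a1 start is the RefSeq one, which lies inside the gene as annotated by GENCODE. Of the 18 chains with a mean of at least 0.5 FPKM, 14 were in the promoter table.

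The depth of each library was read from the step that 1 read makes in low FPKM values and came to 10940000 fragments in CD and 11000000 in CD+7KC, against 9400000 in WD and 12100000 in WD+7KC. A chain of 1 FPKM therefore rests on 9.4 to 12.1 reads per kilobase, and the 18 chains rested on an estimated 18.0 to 6864 reads. FPKM summed to 715605 in CD and 696062 in CD+7KC, against 699534 in WD and 602059 in WD+7KC. The sum was lowest in WD+7KC, and rescaling to equal sums (TPM) raised the median change over all genes, on the log2 scale, by 0.21 in WD+7KC relative to WD and by 0.20 in WD+7KC relative to CD+7KC, so small differences with that library depend on the scaling.

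The most abundant chain was Col18a1, a multiplexin of basement membranes and the precursor of endostatin, on chr10:77052178-77166548 (minus strand, GRCm38). Its level was 125 FPKM in CD and 119 in CD+7KC, against 128 in WD and 117 in WD+7KC. These levels lay close together, and the order of WD+7KC against WD and against CD+7KC changed with TPM scaling. Col18a1 alone made up 56.4% of all collagen FPKM in CD and 62.1% in CD+7KC, against 60.3% in WD and 52.7% in WD+7KC. The other multiplexin, Col15a1, was at 1.49, 1.84, 1.44 and 1.55 FPKM in CD, CD+7KC, WD and WD+7KC. It was highest in CD+7KC, by a log2 difference of 0.29 from CD whose 95% counting interval of -0.14 to 0.74 included 0.

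Without Col18a1, the collagen chains summed to 96.5 FPKM in CD and 72.7 in CD+7KC, against 84.5 in WD and 105 in WD+7KC. The lowest sum was in CD+7KC and the highest in WD+7KC. The 11 fibrillar chains summed to 56.4, 40.9, 44.2 and 52.9 FPKM in CD, CD+7KC, WD and WD+7KC, and the 6 type IV chains to 18.4, 13.8, 17.8 and 27.8 FPKM. The 6 type VI chains summed to 7.29, 4.92, 8.98 and 9.06 FPKM in the same order. CD+7KC had the lowest sum in these 3 classes, and WD+7KC had the highest sum of the type IV and type VI chains, by a narrow margin over WD for type VI.

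**Figure D1:**
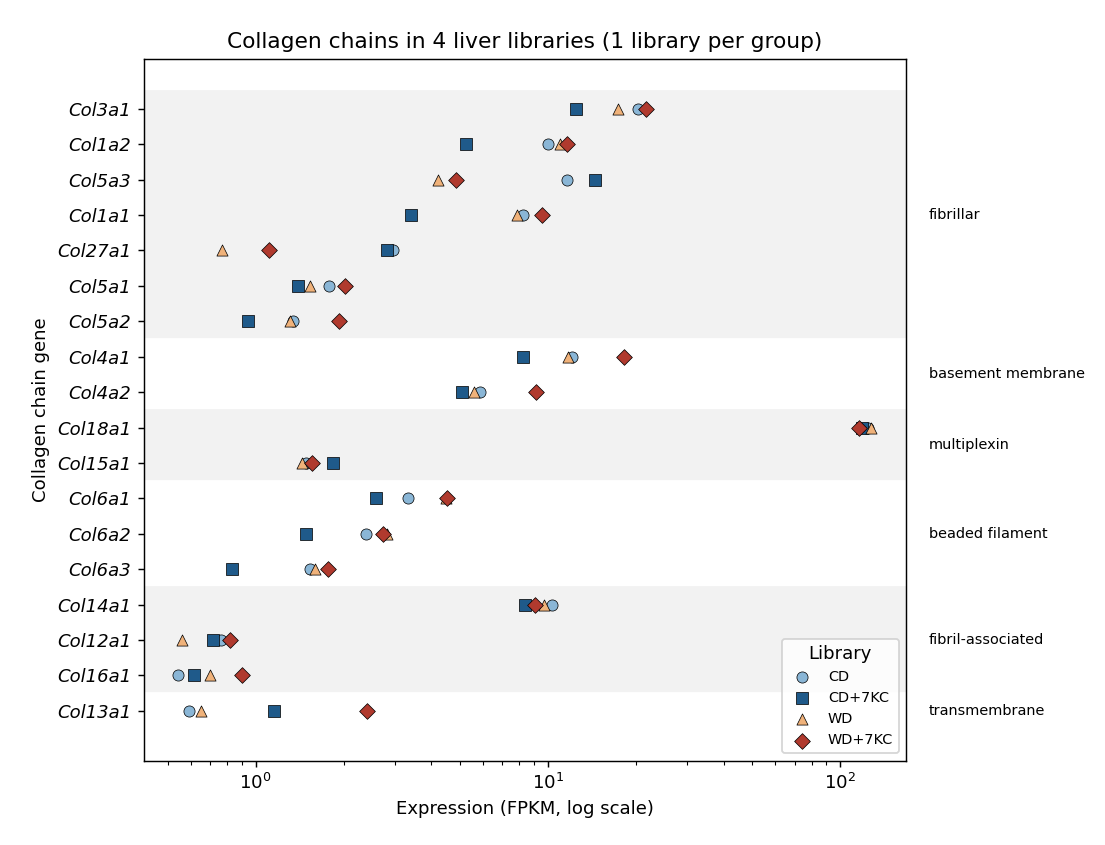
Level of the 18 collagen chains with a mean of at least 0.5 FPKM, in FPKM on a log axis, with 1 point per library and chains grouped by class. Col18a1 lies far to the right at 117 to 128 FPKM, CD+7KC is the lowest library for 11 chains, and Col5a3 and Col27a1 lie lower in both WD libraries.

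CD+7KC was the lowest of the 4 libraries for 11 of the 18 chains, against 22.7% of all genes tested. These were Col1a1, Col1a2, Col3a1, Col4a1, Col4a2, Col5a1, Col5a2, Col6a1, Col6a2, Col6a3 and Col14a1. WD+7KC was the highest for 12 of the 18 chains, against 27.5% of all genes. With TPM scaling it was the highest for 15 chains, against 54.1% of all genes. These 2 counts describe the same 4 libraries and are not independent of the comparisons that follow.

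The first comparison asked how the chains differed when 7KC was added to CD. Of the 18 chains, 14 were lower and 4 were higher in CD+7KC than in CD, and this count was the same with TPM scaling. Their median log2 fold change was -0.32, against -0.004 for all genes, of which 48.7% were higher (56.0% with TPM scaling). Log2 fold changes were taken of FPKM + 0.1, which understates the difference of chains with low values. Only Col1a1 lay below -1, while 1.21% of all genes did, and 0 chains lay above 1, while 1.8% of all genes did.

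Col1a1, the main chain of type I collagen, lies on chr11:94936224-94953042 (plus strand). It was at 8.23 FPKM in CD and 3.40 in CD+7KC, against 7.86 in WD and 9.52 in WD+7KC. The CD+7KC library stood below the other three, which lay close together. The log2 fold change of CD+7KC relative to CD was -1.25, with an exact (Clopper-Pearson) 95% interval of -1.51 to -1.05 that covers counting error only and rests on 516 and 214 estimated reads. It was the gene at rank 89 from the lowest of 11860.

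Col1a2, its partner chain in type I collagen, on chr6:4504814-4541544 (plus strand), was at 10.1 FPKM in CD and 5.25 in CD+7KC, against 11.1 in WD and 11.6 in WD+7KC. The same library stood low, and the log2 fold change of CD+7KC relative to CD was -0.93 (-1.15 to -0.73). Type I collagen is mostly built from 2 Col1a1 chains and 1 Col1a2 chain, but the FPKM ratio of Col1a1 to Col1a2 was below 1 in every library. It was 0.818 (0.726 to 0.924) in CD and 0.647 (0.540 to 0.774) in CD+7KC, against 0.711 (0.624 to 0.808) in WD and 0.820 (0.736 to 0.911) in WD+7KC. The interval of CD+7KC overlapped those of CD, WD and WD+7KC.

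Col3a1, the chain of type III collagen, which forms the fine reticular fibres of liver, was the fibrillar chain with the highest mean. Its level was 20.3 FPKM in CD and 12.5 in CD+7KC, against 17.3 in WD and 21.7 in WD+7KC. CD+7KC was again lowest, with a log2 fold change of -0.70 (-0.84 to -0.57) relative to CD. The ratio of Col3a1 to Col1a1 was 2.47 in CD and 3.67 in CD+7KC, against 2.21 in WD and 2.28 in WD+7KC. Its counting interval in CD+7KC, 3.15 to 4.30, lay above those of the other libraries, the highest of which reached 2.74 in CD. Col3a1 thus differed by less than Col1a1 in CD+7KC.

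Col5a1 and Col5a2, chains of type V collagen that help to start type I fibrils, had lower levels. Col5a1 was at 1.78 FPKM in CD and 1.40 in CD+7KC, against 1.53 in WD and 2.03 in WD+7KC. Col5a2 was at 1.34, 0.944, 1.32 and 1.93 FPKM in the same order. Both were lowest in CD+7KC, with log2 fold changes of -0.33 (-0.70 to -0.01) and -0.47 (-0.97 to -0.03) relative to CD, and with TPM scaling both intervals included 0. Col5a2 lies tail-to-tail with Col3a1 on chromosome 1, with 24614 bases between them.

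Of the chains of type IV collagen, 2 of 6 reached a mean of 0.5 FPKM. Col4a1 and Col4a2 are the chains of nearly all basement membranes, and their genes lie head-to-head on chromosome 8, overlapping by 22 bases. Col4a1 was at 12.1 FPKM in CD and 8.24 in CD+7KC, against 11.8 in WD and 18.2 in WD+7KC. Col4a2 was at 5.86, 5.10, 5.59 and 9.12 FPKM in CD, CD+7KC, WD and WD+7KC. In both chains WD+7KC stood above the other libraries. For CD+7KC relative to CD the log2 fold change was -0.55 (-0.70 to -0.40) for Col4a1 and -0.20 for Col4a2, whose interval of -0.41 to 0.01 included 0. The ratio of Col4a1 to Col4a2 was 2.06 (1.83 to 2.33) in CD and 1.62 (1.42 to 1.86) in CD+7KC, against 2.11 (1.85 to 2.41) in WD and 1.998 (1.82 to 2.19) in WD+7KC. It was lowest in CD+7KC, where its interval overlapped those of the other libraries only at its upper end.

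The 3 expressed chains of type VI collagen were also lower in CD+7KC than in CD. Col6a1 was at 3.32, 2.59, 4.47 and 4.52 FPKM in CD, CD+7KC, WD and WD+7KC. Col6a2 was at 2.39, 1.49, 2.81 and 2.72 FPKM and Col6a3, the large chain whose end is released as endotrophin, at 1.53, 0.830, 1.60 and 1.77 FPKM. CD+7KC was lowest for all 3 chains. Their log2 fold changes of CD+7KC relative to CD were -0.35 for Col6a1, -0.65 for Col6a2 and -0.81 for Col6a3. The counting interval of Col6a1 was -0.73 to 0.01 and included 0.

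Col14a1, a fibril-associated collagen that binds to the surface of fibrils, differed little. It was at 10.4 FPKM in CD and 8.35 in CD+7KC, against 9.74 in WD and 9.03 in WD+7KC. The log2 fold change was -0.31 in CD+7KC relative to CD and -0.11 in WD+7KC relative to WD, and the sign of the second changed with TPM scaling. The related chains Col12a1, at 0.763, 0.714, 0.558 and 0.818 FPKM, and Col16a1, at 0.544, 0.614, 0.696 and 0.901 FPKM, were the lowest of the 18 by mean. Their intervals for CD+7KC relative to CD, -0.52 to 0.35 and -0.58 to 0.93, included 0.

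The chains that were higher in CD+7KC than in CD were Col5a3, Col13a1, Col15a1 and Col16a1. Col13a1, a collagen anchored in the plasma membrane, had the largest of these differences, a log2 fold change of 0.87 from an estimated 19.1 and 37.8 reads.

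The second comparison asked the same of WD. Of the 18 chains, 15 were higher in WD+7KC than in WD and 3 were lower. Their median log2 fold change was 0.30, against -0.02 for all genes, of which 47.1% were higher. With TPM scaling all 18 chains were higher, the median was 0.51, and 76.0% of all genes were higher with a median of 0.19. The 3 lower chains, Col6a2, Col14a1 and Col18a1, were those that changed sign. Only Col13a1 lay above 1, while 3.79% of all genes did, and 0 chains lay below -1, while 1.09% of all genes did.

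Col13a1, on chr10:61838236-61979108 (minus strand), was at 0.590 FPKM in CD and 1.16 in CD+7KC, against 0.648 in WD and 2.41 in WD+7KC. Both libraries with 7KC lay above both libraries without it. The log2 fold change of WD+7KC relative to WD was 1.74, at rank 68 from the highest of 11860 genes, and rested on an estimated 18.0 and 86.2 reads. The gene has 2 RefSeq mRNAs, so these read numbers are rough and no counting interval is given.

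The type IV chains came next, with log2 fold changes of 0.63 (0.50 to 0.76) for Col4a1 and 0.70 (0.51 to 0.90) for Col4a2. All 7 expressed fibrillar chains were higher with 7KC under WD, with a median of 0.32. Among them, Col5a2 differed by 0.52 (0.16 to 0.97), Col27a1 by 0.49 (0.06 to 1.06), Col5a1 by 0.39 (0.07 to 0.74) and Col3a1 by 0.32 (0.20 to 0.45). Col1a1 differed by 0.27 (0.10 to 0.46), and Col1a2 by 0.07 with an interval of -0.09 to 0.24 that included 0. The type VI chains differed by -0.05 to 0.13, and their median was 0.02 with the deposited values and 0.23 with TPM scaling.

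**Figure D2:**
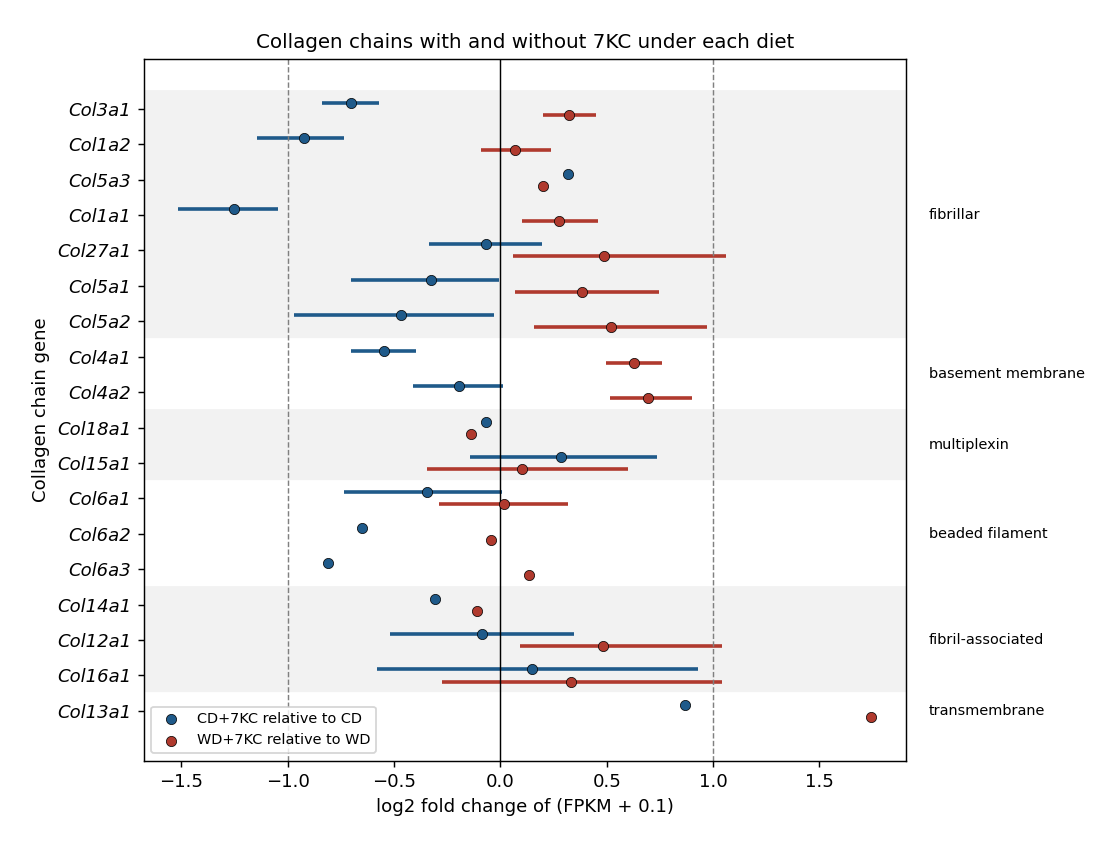
Log2 fold change of each collagen chain with 7KC relative to without it, under CD (blue) and WD (red), with lines for the 95% counting interval of chains with a single RefSeq mRNA and dashed lines at -1 and 1. Under CD most points lie left of 0, with Col1a1 at -1.25, and under WD most lie right of 0, with Col13a1 at 1.74.

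The fold changes with 7KC under the 2 diets come from separate libraries and are set side by side. Col1a1 had -1.25 under CD and 0.27 under WD, Col4a1 had -0.55 and 0.63, and Col5a2 had -0.47 and 0.52. The 2 counting intervals did not overlap for Col1a1, Col1a2, Col3a1, Col4a1, Col4a2, Col5a1 or Col5a2. They overlapped for Col6a1, Col12a1, Col15a1, Col16a1 and Col27a1. These intervals cover counting error only, and the share of all genes without overlap was not computed. Col13a1 was the chain with the highest log2 fold change under both diets. Whether the response to 7KC differs between the diets was not tested, because each group had 1 library.

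The third comparison asked how WD livers differed from CD livers without 7KC, and here most chains lay near 0. Of the 18 chains, 7 were higher in WD and 11 were lower. Their median log2 fold change was -0.04, against -0.001 for all genes, of which 49.7% were higher. Col5a3 and Col27a1 lay below -1, while 2.56% of all genes did, and 0 chains lay above 1, while 3.21% of all genes did. The other 16 chains lay between -0.39 for Col12a1 and 0.42 for Col6a1, and Col5a2 changed sign with TPM scaling.

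Col27a1, a fibrillar chain best known from cartilage, on chr4:63214004-63334991 (plus strand), was at 2.96 FPKM in CD and 2.82 in CD+7KC, against 0.766 in WD and 1.11 in WD+7KC. Both WD libraries lay below both CD libraries. The log2 fold change was -1.82 (-2.42 to -1.53) in WD relative to CD, at rank 76 from the lowest of 11860 genes, and -1.27 (-1.69 to -0.99) in WD+7KC relative to CD+7KC. These values rest on an estimated 240.4 reads in CD and 230.0 in CD+7KC, against 53.4 in WD and 99.9 in WD+7KC.

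Col5a3, the third chain of type V collagen, on chr9:20770050-20815067 (minus strand), had the same split. It was at 11.7 FPKM in CD and 14.6 in CD+7KC, against 4.21 in WD and 4.85 in WD+7KC. The log2 fold change was -1.45 in WD relative to CD and -1.57 in WD+7KC relative to CD+7KC. It was the second fibrillar chain by level in CD and the first in CD+7KC, above Col3a1. The ratio of Col5a3 to Col5a1 was 6.55 in CD and 10.4 in CD+7KC but 2.75 in WD and 2.39 in WD+7KC, while Col5a1 itself varied between 1.40 and 2.03 FPKM. Col5a3 and Col27a1 were lowest in WD, whereas Col1a1, Col1a2 and Col3a1 were lowest in CD+7KC.

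The fourth comparison set WD+7KC against CD+7KC and shares each of its libraries with an earlier comparison. Of the 18 chains, 14 were higher in WD+7KC and 4 were lower (15 and 3 with TPM scaling). Their median log2 fold change was 0.79, against -0.01 for all genes, of which 48.7% were higher (69.5% with TPM scaling). Above 1 lay Col1a1 at 1.46 (1.26 to 1.72), Col4a1 at 1.13 (1.003 to 1.285), Col1a2 at 1.13 (0.95 to 1.35) and Col6a3 at 1.005, while 6.2% of all genes did. Below -1 lay Col5a3 and Col27a1, while 3.22% of all genes did. Col13a1 at 0.99 and Col5a2 at 0.96 lay just inside the threshold. With TPM scaling 9 chains lay above 1, while 8.96% of all genes did. With a pseudocount of 1, Col6a3 was at 0.60 and Col27a1 at -0.85, inside the threshold. Without 7KC, the 4 chains above 1 lay between -0.07 and 0.14 in WD relative to CD.

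**Figure D3:**
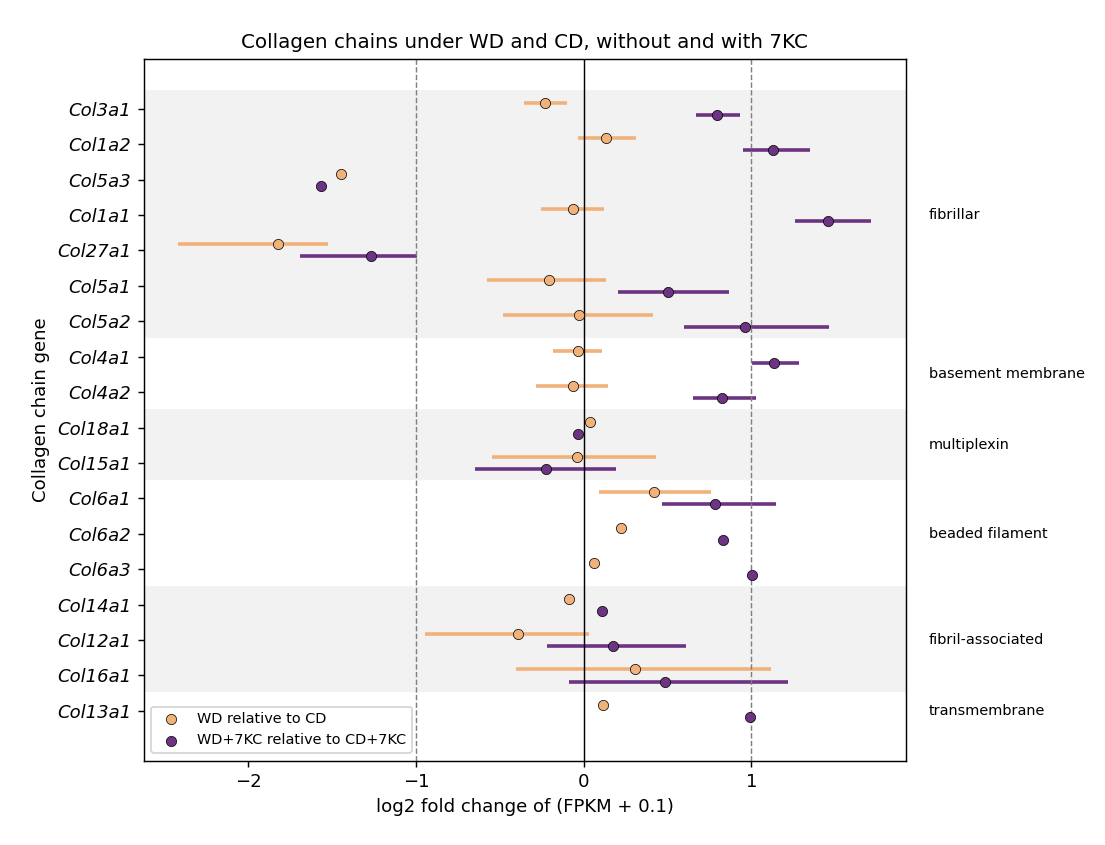
Log2 fold change of each collagen chain under WD relative to CD without 7KC (orange) and with 7KC (purple), with lines for the 95% counting interval of chains with a single RefSeq mRNA and dashed lines at -1 and 1. Col5a3 and Col27a1 lie below -1 in both comparisons, while Col1a1, Col1a2, Col4a1 and Col6a3 lie above 1 only with 7KC present in both diets.

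The 18 chains under the mean of 0.5 FPKM but above 0 somewhere were Col4a3, Col4a4, Col4a5, Col4a6, Col6a5, Col6a6, Col7a1, Col8a1, Col8a2, Col9a3, Col10a1, Col11a2, Col20a1, Col22a1, Col23a1, Col24a1, Col25a1 and Col28a1. The highest was Col4a5, at 0.433, 0.355, 0.448 and 0.362 FPKM in CD, CD+7KC, WD and WD+7KC, and its mean of 0.399 was the nearest below the threshold, while Col16a1 at 0.689 was the nearest above. Col8a1, a short-chain collagen of vessel walls, was at 0.296, 0.203, 0.107 and 0.167 FPKM, from an estimated 15.9, 10.9, 5.0 and 9.9 reads. The other 16 had at most 10 estimated reads in every library, too few to resolve most differences. Among those with a single RefSeq mRNA, Col4a3 alone had a counting interval that excluded 0, in WD+7KC relative to WD, where an estimated 7.9 reads stood against a value listed at 0.

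The 8 chains listed at 0 in all libraries were Col2a1, Col6a4, Col9a1, Col9a2, Col11a1, Col17a1, Col19a1 and Col26a1. They include the cartilage chains Col2a1, Col9a1, Col9a2 and Col11a1 and the epithelial anchoring chain Col17a1. At the estimated depth a count of 0 allows up to 3 reads, which is 0.0332 to 0.124 FPKM depending on the chain and library. The cartilage and bone markers were at or near 0 as well: 5 of 7 were listed at 0 throughout, and their sum reached at most 0.312 FPKM.

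Genes that process collagen were examined as lists. For the counts of these lists, 48.7% of all genes were higher in CD+7KC than in CD (56.0% with TPM scaling). In WD+7KC relative to WD, 47.1% of all genes were higher (76.0% with TPM scaling). Of the enzymes and chaperones of collagen synthesis, 14 of 18 reached a mean of 0.5 FPKM, and 10 of these were lower in CD+7KC than in CD, with a median log2 fold change of -0.15. The lowest was Fkbp10, a collagen chaperone, at 1.40 FPKM in CD and 0.452 in CD+7KC, against 1.23 in WD and 1.47 in WD+7KC. The log2 fold change with 7KC under CD was -1.44. Serpinh1, the collagen chaperone HSP47, was at 10.9, 6.52, 10.8 and 14.5 FPKM in CD, CD+7KC, WD and WD+7KC. Both were lowest in CD+7KC. In WD+7KC relative to WD, 10 of the 14 were higher (13 with TPM scaling) with a median of 0.25 and 0 lay past 1 in either direction. The values ran from 0.82 for P4ha1, a prolyl hydroxylase, to -0.32 for P3h4.

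Of the genes for procollagen cleavage and crosslinking, 6 of 13 reached the mean, and 5 of these were lower in CD+7KC than in CD, with a median of -0.31. In WD+7KC relative to WD, Pcolce2, an enhancer of procollagen cleavage, had the highest log2 fold change, 1.96, at 0.492, 0.871, 0.445 and 2.03 FPKM in CD, CD+7KC, WD and WD+7KC, and the lysyl oxidase Loxl1 the lowest, -0.52. Like Col13a1, Pcolce2 was higher in both libraries with 7KC.

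The degradation list of matrix proteases and their inhibitors had 7 of 10 members at the mean. All 7 were lower in CD+7KC than in CD, with a median of -0.51, but only 5 with TPM scaling. Under WD, 6 were higher with 7KC, with a median of 0.68, and all 7 with TPM scaling. The inhibitor Timp1 was at 4.14 FPKM in CD and 1.46 in CD+7KC, against 2.95 in WD and 5.19 in WD+7KC. The collagenase Mmp13 was at 0.624, 0.622, 0.726 and 2.96 FPKM and had the highest log2 fold change of the list under WD, 1.89, and the gelatinase Mmp2 the lowest, -0.21. Only WD+7KC stood apart for Mmp13, whereas Timp1 was lowest in CD+7KC.

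The collagen receptors had 5 of 10 members at the mean. In CD+7KC 4 of the 5 were lower than in CD, and Lair1, an inhibitory receptor of leukocytes, was higher. In WD+7KC relative to WD, 3 of the 5 were higher (all 5 with TPM scaling), from 0.93 for Lair1 to -0.16 for Ddr2, a receptor for fibrillar collagen. Of the proteins that bind collagen fibrils, 14 of 18 reached the mean and 13 of these were lower in CD+7KC than in CD, with a median of -0.47. In WD+7KC relative to WD, 9 of the 14 were higher (12 with TPM scaling), from 1.07 for the fibulin Fbln2 to -1.09 for Ogn, a small leucine-rich proteoglycan.

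The basement membrane proteins other than collagen did not have the same order of libraries as the type IV chains. Of 10 members at the mean, 7 were higher in CD+7KC than in CD, with a median of 0.12, whereas Col4a1 and Col4a2 were lower. In WD+7KC relative to WD, 9 of the 10 were higher (all 10 with TPM scaling) with a median of 0.51, from 1.34 for the laminin chain Lama4 to -0.08 for the laminin chain Lamb1. Perlecan, Hspg2, was at 1.46, 1.32, 1.15 and 3.01 FPKM in CD, CD+7KC, WD and WD+7KC.

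Markers of the cells that make collagen, and of other cells, were summed beside the chains. The liver label was checked against hepatocyte markers, whose sums of 46781 to 58539 FPKM were the highest of all lists, with Alb the most abundant gene in every library. The 12 stellate cell markers were all at the mean and summed to 125 FPKM in CD and 115 in CD+7KC, against 137 in WD and 134 in WD+7KC. In CD+7KC 9 of the 12 were lower than in CD, with a median of -0.35, from Cygb at -0.79 to Rgs5 at 0.26. The stellate cell sum was lowest in CD+7KC, as were Col1a1, Col1a2 and Col3a1. Ecm1, at 56.2 FPKM in CD and 51.4 in CD+7KC, and Colec11, at 33.2 and 33.4, gave most of that sum. Lower values in CD+7KC than in CD were not particular to stellate cell markers. All 9 hepatocyte and all 6 cholangiocyte markers at the mean were lower there too, with medians of -0.23 and -0.44. In WD+7KC 8 of the 12 stellate cell markers were lower than in WD. Their median was -0.16, against -0.02 for all genes, of which 47.1% were higher. With TPM scaling 4 were lower and the median was 0.05, against 0.19 for all genes, of which 76.0% were higher. With the deposited values the stellate cell markers ran from -0.65 for Hand2 to 0.32 for Rgs5 in WD+7KC relative to WD.

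The 8 myofibroblast markers summed to 35.8 FPKM in CD and 29.1 in CD+7KC, against 27.4 in WD and 38.5 in WD+7KC. Acta2, the smooth muscle actin of activated stellate cells, was at 3.18, 1.91, 2.58 and 3.53 FPKM in this order. Of the 5 markers at the mean, 3 were lower in CD+7KC than in CD, with Acta2 among them. The other 2, Postn and Myl9, were higher, with log2 fold changes of 0.35 and 0.39. All 5 myofibroblast markers at the mean were higher with 7KC under WD, from 0.29 for Tagln to 0.79 for Timp1. The portal fibroblast markers summed to 34.4, 37.8, 59.9 and 72.7 FPKM, higher in both WD libraries. Gas6 gave most of that sum, at 25.3, 29.3, 44.4 and 55.4 FPKM. Entpd2, Thy1 and Cd34 were also higher in both WD libraries, but Fbln2 was not, at 1.12, 0.634, 0.868 and 1.92 FPKM. Eln and Mfap4 differed by only 0.08 and 0.05 in WD relative to CD. With 7KC under WD, the portal fibroblast markers ran from -0.24 for Entpd2 to 1.07 for Fbln2. The part of these cells in the collagen values was not tested.

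In the WD libraries the type IV chains were higher with 7KC, and so were the endothelial, macrophage and myofibroblast sums. The 12 endothelial markers summed to 84.0 FPKM in CD and 114 in CD+7KC, against 67.4 in WD and 181 in WD+7KC. All 12 were higher with 7KC under WD, with a median of 1.48 and a range from 0.998 for Eng to 1.95 for Kdr. In CD+7KC relative to CD, however, 11 of the 12 were higher, with a median of 0.28, while Col4a1 and Col4a2 were lower. Col13a1 was higher in both libraries with 7KC than in both without it, as was the endothelial sum. The macrophage sum was higher with 7KC under each diet, but CD+7KC, at 247 FPKM, lay below WD, at 261. Whether endothelial cells or macrophages had a part in the collagen values was not tested.

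The 12 macrophage markers summed to 158 FPKM in CD and 247 in CD+7KC, against 261 in WD and 524 in WD+7KC. All 12 were higher in WD+7KC than in WD, from 0.65 for Marco to 1.55 for Adgre1, which encodes F4/80. Of the cholangiocyte markers, Spp1, which other cells also make, was at 98.7, 43.7, 124 and 183 FPKM in CD, CD+7KC, WD and WD+7KC. It was lowest in CD+7KC, and its log2 fold change with 7KC under WD was 0.57. The hepatocyte markers ran from -0.60 for Apoa1 to 0.07 for Apob in the same comparison.

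Lists for tissue around the liver were low. The mesothelial markers summed to at most 1.28 FPKM and 0 of 6 reached the mean. Of the 7 skeletal muscle markers, Mylpf alone reached the mean, at 1.33 FPKM in CD and 0.495 in CD+7KC, against 0.770 in WD and 1.498 in WD+7KC, and 3 were listed at 0. Of the 6 adipocyte markers, 2 were listed at 0 and 2 reached the mean, of which Cidea, also a gene of fatty hepatocytes, gave most of the sum, with 142.8 FPKM in CD and 39.7 in WD+7KC, and Lipe was at 5.97 to 6.86 FPKM. Their part in the collagen values was not tested.

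**Figure D4:**
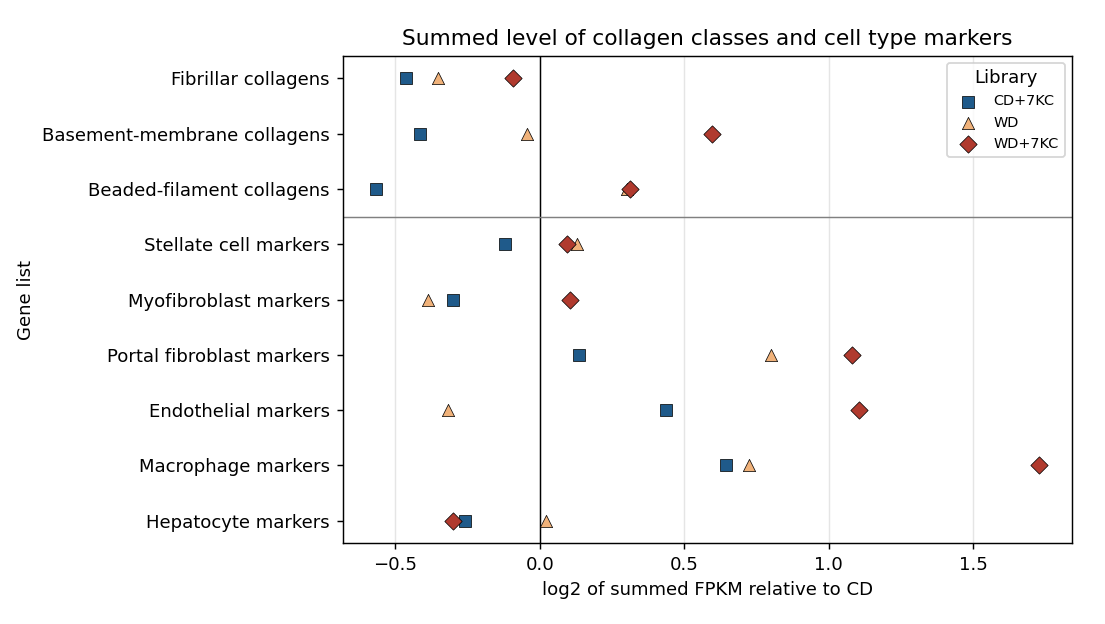
Summed FPKM of 3 collagen classes and 6 cell type marker lists in CD+7KC, WD and WD+7KC, as log2 relative to the sum in CD. The 3 collagen classes lie lowest in CD+7KC, as does the stellate cell list, and the hepatocyte and myofibroblast lists also lie below CD there. The endothelial and macrophage lists lie above CD in CD+7KC and highest in WD+7KC.

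The annotation limits a few of these values. Exons of Col5a1 share 99 and 113 bases with 2 transcripts on the opposite strand, those of Col4a2 share 43 bases with an antisense transcript, and those of Col3a1 share 141 bases with a microRNA gene on the same strand. The libraries were made with a stranded kit, but whether strand was used to compute FPKM is not given in the sources used here.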

How the data were processed

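RNA sequencing was carried out on liver of ob/ob mice in 4 groups with 1 library each. Total RNA was prepared with a stranded mRNA kit and read in single-end mode at 75 bases. Per the labels and the study's methods, reads were mapped to mm10 with TopHat2 2.0.13, Bowtie2 2.2.3 and SAMtools 0.1.19, and the authors deposited FPKM values from Cufflinks 2.2.1, 1 per gene symbol. The annotation, the strand option and the number of mice per library are not given in the sources used here.

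Log2 fold changes of FPKM + 0.1 were computed over the 11860 genes whose mean level reached 0.5 FPKM, and values above 1 or below -1 were counted. No p-value was computed with 1 library per group. The members, classes and gene lists were chosen with earlier results of these data known. Every chain at the mean was named, and of each list the members with the highest and lowest change in WD+7KC relative to WD, except that 1 list is not reported in full here. Others are named as examples chosen after their values were seen. These were Fkbp10, Serpinh1, Timp1, Hspg2, Acta2, Cygb, Gas6, Thy1, Cd34, Eln, Mfap4 and Alb. Ecm1, Colec11, Postn and Myl9 were chosen in the same way.

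Depth was estimated from 11703 genes with a single RefSeq mRNA, using transcript length minus 200 bases. Between 71.7% and 72.5% of low values lay within 0.1 of a whole read. Exact 95% intervals are of the FPKM ratio, rest on these read numbers and cover counting error only. Coordinates came from GENCODE vM21 and promoters from RefSeq (GRCm38.p6). The code was tested on simulated data. The alternatives were pseudocounts of 1 and 0.01, no filter, a mean of at least 1 FPKM, TPM, median-ratio scaling and a lower threshold. Python 3.11.15, numpy 2.4.6, pandas 2.3.3, scipy 1.17.1 and matplotlib 3.10.9 were used.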

Additional observations from a re-analysis of the deposited data

Results flagged for a closer look

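For 11 chains the log2 fold change with 7KC was negative under CD and positive under WD with the deposited values, TPM and median-ratio scaling, as it was for 19.4% of all genes tested. The difference of the WD value minus the CD value was 1.53 for Col1a1, 1.17 for Col4a1, 1.02 for Col3a1, 0.996 for Col1a2, 0.988 for Col5a2 and 0.944 for Col6a3. It was 0.892 for Col4a2, 0.712 for Col5a1, 0.566 for Col12a1, 0.557 for Col27a1 and 0.362 for Col6a1. With 1 library in each of the 4 groups the difference was not tested. CD+7KC was the lowest of the 4 libraries for 9 of the 11 chains. The rule that picked these chains leaves only CD+7KC or WD as the lowest library, so this count adds little. The counting intervals under the 2 diets overlapped for Col6a1, Col12a1 and Col27a1, and no interval is given for Col6a3. Stellate cell and endothelial markers differed between the same libraries, with sums of 115 and 114 FPKM in CD+7KC and of 134 and 181 FPKM in WD+7KC, and their part in these differences was not tested.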

How the results depend on the processing

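No result changed sign among the counts and medians of the 4 comparisons under the alternatives run. For WD relative to CD the median moved by less than 0.1 and the counts past the threshold did not move. Its split of 7 higher and 11 lower chains became 8 and 10 with TPM scaling. Results of the other 3 comparisons changed as follows. With a pseudocount of 1, the median of the chains was 0.19 in WD+7KC relative to WD and 0.59 in WD+7KC relative to CD+7KC, where 1 chain, Col5a3, lay below -1 and 3 lay above 1 instead of 4, without Col6a3. With a pseudocount of 0.01, 6 chains lay above 1 in that comparison. Without the filter on low values, the medians were 0.13 over 35 chains in WD+7KC relative to WD, -0.19 over 36 chains in CD+7KC relative to CD and 0.17 over 35 chains in WD+7KC relative to CD+7KC, since chains at or near 0 entered. With TPM scaling, which raises all values of WD+7KC, the medians were 0.51 in WD+7KC relative to WD and 0.995 in WD+7KC relative to CD+7KC, where 9 chains lay above 1. With the lower threshold, 3 chains lay above it in WD+7KC relative to WD (9.70% of all genes), 1 above (5.89%) and 5 below (3.98%) in CD+7KC relative to CD, and 10 above (13.8%) in WD+7KC relative to CD+7KC. Of the values of single chains, 7 fell outside the chain's counting interval with a pseudocount of 1 and 13 with TPM scaling, and 0 with the other alternatives that gave single values. Leaving out a replicate was not possible, and no paired analysis was possible because each group had 1 library. Depth limits the chains under 0.5 FPKM, of which 16 of 18 had at most 10 estimated reads in every library.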
